A study of Sus scrofa with 8 samples.

Results

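The genes described here are the JAK kinases (JAK1, JAK2, JAK3 and TYK2) and the inhibitors of JAK-STAT signaling from the SOCS family (SOCS1, SOCS3 and CISH) and the PIAS family (PIAS1, PIAS2 and PIAS3). They were chosen by symbol: a row of the deposited count table belonged to the set if its Ensembl identifier carried one of these symbols in the table of pig gene names. All 10 symbols were found, each on 1 of the 24358 rows.

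JAK kinases are bound to the intracellular tails of cytokine receptors, and when a ligand brings receptor chains together they phosphorylate the receptor and the STAT transcription factors that dock on it. SOCS proteins and CISH are induced by STATs and close a negative feedback loop: their SH2 domain binds phosphorylated receptors or kinases, their SOCS box recruits a ubiquitin ligase, and SOCS1 and SOCS3 also carry a short region that blocks the kinase. PIAS proteins are SUMO ligases of the nucleus that restrain STATs and many other transcription factors. In pluripotent stem cells the pathway is best known for the response to LIF, which runs through LIFR, gp130, JAK1 and STAT3 in mouse cells.

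RNA-seq was done on porcine induced pluripotent stem cells (piPSCs), which the study describes as of the type DOX-hLIF-2i. There were 2 libraries of IRF-1 overexpressing cells (replicates 1 and 3) and 2 libraries of control cells (replicates 6 and 8). By the study's methods, these piPSCs were made from porcine embryonic fibroblasts with an OCT4-tdTomato reporter by the lentiviral vectors FUW-OSKM and FUW-M2rtTA. By that account both groups carried doxycycline-inducible reprogramming factors and were kept in doxycycline. The overexpressing cells received PB-CAG-IRF1-Flag, in which the CAG promoter drives tagged IRF-1, the control cells received PB-CAG-Flag, and both were selected with puromycin. The comparison asks how added IRF-1, a transcription factor of the interferon response, changes gene expression in these cells. The genotype field of the sample labels reads overexpression for all 4 libraries, and the groups were taken from the library titles as the study's legend reads them. The labels name PC-iPS cells and an LCDMV culture system, whereas the study's methods describe DOX-hLIF-2i piPSCs in a medium with LIF, kinase inhibitors and doxycycline. Which account holds for the 4 libraries is unclear. Feeder cells were removed by attachment before the RNA was extracted. The sources used here do not say whether the replicates of a group were separate cultures, so p-values measure only the spread between these libraries, which may be technical.

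IRF1 was examined to check the groups. It had 8206 and 5485 counts in overexpressing replicates 1 and 3, and 55 and 56 counts in control replicates 6 and 8, so it was high in both libraries read as overexpressing and low in both read as control. Its log2 fold change, overexpressing over control, came to 6.46 (standard error, SE, 0.21, edgeR adjusted p = 3.65e-05), and the counts do not separate introduced from endogenous transcripts. Library totals were 24923319 and 20858333 counts with IRF-1 overexpression and 15925429 and 17097669 in the controls. A single count was worth between 0.0403 and 0.064 CPM (counts scaled by library size and TMM factor).

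Markers of cell identity moved with the groups as well, and mitochondrial genes took 8.62% and 7.57% of the counts in overexpressing replicates 1 and 3 and 6.29% and 6.68% in control replicates 6 and 8. Of 20 pluripotency markers, 10 were analysed, with a summed level of 1350 and 1380 CPM in overexpressing replicates 1 and 3 and 1580 and 1740 CPM in control replicates 6 and 8. DNMT3B was the most abundant of them in CPM, but after division by exon length LIN28A was above it in every library. Of 8 tested, 3 were lower and 1 was higher, beside 15.5% lower and 13.9% higher among all genes tested. The lower ones were ESRRB (log2 fold change -4.19), CDH1 (-2.25) and LIN28A (-1.34). The higher one was TERT, whose call was lost without overexpressing replicate 1 (adjusted p = 0.292 in edgeR) or control replicate 8 (0.0811), and with all libraries in limma-voom (adjusted p = 0.0869). Without control replicate 8, DNMT3B was called higher (adjusted p = 0.00702 in edgeR). NANOG had only between 5 and 11 counts in each library and DPPA5 at most 2, whereas POU5F1 and SOX2 were not analysed here. Trophoblast markers (15 analysed) summed to 414 and 1260 CPM in the overexpressing cells and to 15900 and 9820 CPM in the controls. Most of this was the keratin KRT8, while CDX2 and HAND1 were at 0 in all 4 libraries. Of 9 trophoblast markers tested 6 were lower and 1 was higher, beside the same 15.5% and 13.9% of all genes. Fibroblast markers (15 analysed) summed to 596 and 545 CPM against 725 and 628 CPM. LOX was the most abundant of them, 5 of the 9 tested were lower and 2 were higher (1 without overexpressing replicate 1 or without control replicate 8), and COL6A3 had at most 1 count in a library. Beside the fibroblast calls too, 15.5% of all genes were lower and 13.9% were higher. No marker list was tested against all genes. Of the markers called lower, DAB2 (trophoblast) and DCN (fibroblast) passed the filter on low counts only through the controls. The part of these differences in the results below was not tested. In RNA from whole cultures, a change in the number of cells that express a gene and a change of RNA per cell cannot be told apart.

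Of the 10 member genes, 2 were higher in the IRF-1 overexpressing cells (JAK1 and SOCS1) and 3 were lower (JAK3, PIAS1 and PIAS3), at an adjusted p under 0.05 in edgeR's quasi-likelihood test. Among all 13250 genes tested, 13.9% were higher and 15.5% were lower by the same rule, against 20.0% and 30.0% of the members, and the difference of these shares was not tested. All 10 passed the filter on low counts, but JAK3 passed it only through the control libraries. The groups did not overlap for 6 of the 10 members, beside 68.6% of all genes tested. The median log2 fold change of the members was -0.01 and that of all genes 0.00. When a log2 fold change of 1 or more in either direction was also required, JAK1 and SOCS1 were still called higher (8.61% of all genes were) and JAK3 alone was called lower (10.6% of all genes were). Without overexpressing replicate 1, none of the members was called lower (0 of 10, with 845 of all genes against 2054), and without overexpressing replicate 3 only 1 was.

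**Figure D1:**
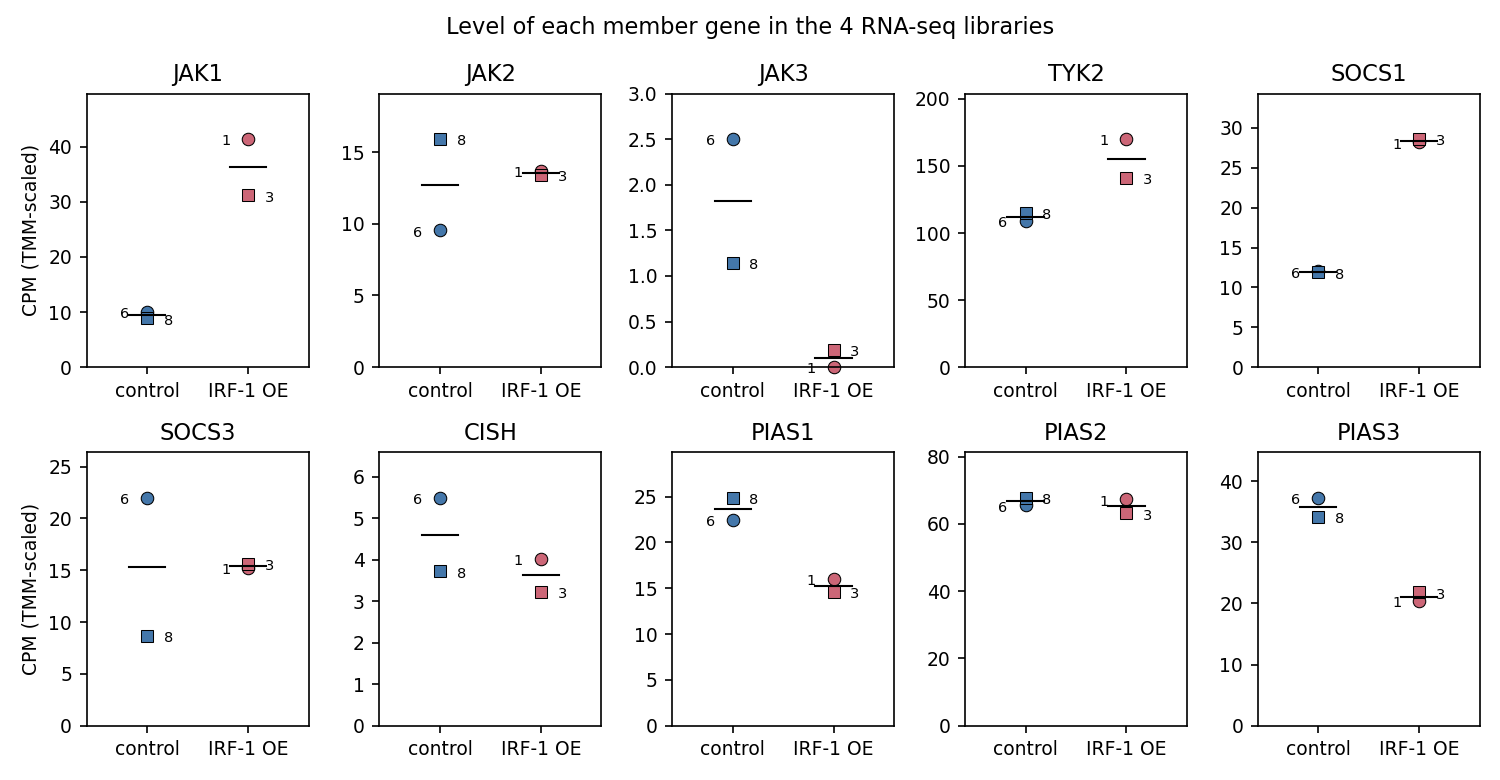
Level of the 10 member genes in CPM (vertical axes, each starting at 0 with its own scale) in control replicates 6 and 8 and IRF-1 overexpressing replicates 1 and 3 (points, with the replicate number beside each). Horizontal lines are means of 2 libraries; the groups are apart for JAK1, JAK3, TYK2, SOCS1, PIAS1 and PIAS3 and overlap for JAK2, SOCS3, CISH and PIAS2.

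Among the kinases, JAK1 rose and JAK3 fell, TYK2 lay on the threshold and JAK2 did not pass it. JAK1 (ENSSSCG00000003809, plus strand of chromosome 6 of the build Sscrofa11.1, 147321176 to 147567187) is the kinase shared by receptors of the gp130, interferon and common gamma chain families. It had 1029 and 648 counts in overexpressing replicates 1 and 3 and 156 and 155 counts in control replicates 6 and 8, which is 41.4, 31.2, 9.98 and 8.86 CPM. Both overexpressing libraries stood far above both controls, which lay close together. The fold change was 3.85 (log2 1.95, SE 0.217, edgeR adjusted p = 0.000917). Leaving out any 1 library gave log2 fold changes that ranged from 1.73 to 2.14.

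TYK2 (ENSSSCG00000013648, minus strand of chromosome 2, 69156351 to 69183517) works with the receptors for type I interferons and for IL-12 and IL-10. It was counted 4213 and 2938 times in the overexpressing libraries and 1704 and 2018 times in the controls, or 170 and 141 CPM against 109 and 115 CPM. The groups did not overlap, although the overexpressing libraries differed more from each other than the controls did. Its log2 fold change was 0.47 (SE 0.15, 95% interval 0.12 to 0.82), with an adjusted p of 0.0504 in edgeR. The adjusted p lay between 0.0236 and 0.0617 under 8 other normalizations, filters and tests with all libraries, and it passed 0.05 under 6 of them, DESeq2 (0.0349) and limma-voom (0.0449) included. Without overexpressing replicate 1 the log2 fold change was 0.34, with an adjusted p of 0.383 in edgeR, and without control replicate 8 it was 0.52, with an adjusted p of 0.0403 in edgeR.

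JAK2 (ENSSSCG00000005215, minus strand of chromosome 1, 216848648 to 217002166), the kinase of the erythropoietin, thrombopoietin and growth hormone receptors, had 341 and 279 counts with IRF-1 overexpression and 149 and 278 counts in the controls. In CPM these were 13.7 and 13.4 against 9.54 and 15.9. The overexpressing libraries lay between the controls, so the groups overlapped. The log2 fold change was 0.09, with a 95% interval from -0.56 to 0.74 (adjusted p = 0.838 in edgeR), and leaving out control replicate 6 gave -0.23 while leaving out control replicate 8 gave 0.51.

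JAK3 (ENSSSCG00000013888, plus strand of chromosome 2, 59905450 to 59928248) pairs with the common gamma chain of the lymphoid cytokine receptors and is mainly known from blood cells. It was the least abundant kinase, with 39 and 20 counts in control replicates 6 and 8 and with 0 and 4 counts in overexpressing replicates 1 and 3. A count of 0 in replicate 1 allows a level of up to 0.121 CPM (3 counts), and the level in replicate 3 was 0.192 CPM, against 2.5 and 1.14 CPM in the controls. Over the libraries of a group, 59 counts in the controls stood against 4, a ratio of 20.4 after division by the library totals, with an exact interval from 7.58 to 77.5 that covers counting error only. The fitted log2 fold change of -4.25 (SE 0.944, edgeR adjusted p = 0.0132) depends on the prior count. Leaving out overexpressing replicate 3 gave -8.13 and leaving out overexpressing replicate 1 gave -3.18, where the adjusted p was 0.0619 in edgeR. The value without control replicate 6 was -3.60. Exons of JAK3 share 6 bases with an unnamed gene on the opposite strand (ENSSSCG00000013889). That gene had 31279 and 28003 counts with IRF-1 overexpression and 18375 and 15643 in the controls, which is 1300 CPM on average against 1040 CPM. The part of this overlap in the result on JAK3 was not tested.

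Markers of blood cells were compared with JAK3. Of 24 on the list, 7 were abundant enough to be tested, and the markers summed to 271 and 180 CPM in overexpressing replicates 1 and 3 and to 42.0 and 30.4 CPM in control replicates 6 and 8. LCP1, an actin-bundling protein that many tumor cell lines also make, had 5809 and 3105 counts against 30 and 21. It made up 86.2% and 82.7% of the sum in the overexpressing libraries but 4.57% and 3.95% in the controls, where IKZF1, a transcription factor of lymphoid cells, made up 49.6% and 50.4%. The lymphoid markers CD3E and MS4A1 were at 0 in all 4 libraries, and PTPRC (CD45) had 1 count in control replicate 8 and 0 in the others. CD79A, a marker of B cells, had 47 and 59 counts with IRF-1 overexpression and 28 and 19 in the controls and was not called (log2 fold change 0.72, adjusted p = 0.283 in edgeR), and 3229 of its 5179 exon bases are shared with ARHGEF1 on the same strand. The tested markers were called higher in 2 cases (LCP1 and CORO1A) and lower in 1 (IKZF1), beside 13.9% higher and 15.5% lower among all genes. The difference from these shares was not tested. IKZF1 had 20 and 25 counts with IRF-1 overexpression and 326 and 268 in the controls (log2 fold change -4.18, edgeR adjusted p = 0.000354), so it was lower where JAK3 was lower. The part of these markers in the result on JAK3 was not tested. IL2RG, which encodes the common gamma chain itself, had 15 and 16 counts with IRF-1 overexpression and 21 and 16 in the controls. Its log2 fold change was -0.71, with an adjusted p of 0.325 in edgeR.

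To compare levels between genes, counts were also divided by the exon length that the table gives (FPKM). In the control cells TYK2 was the most abundant kinase at 16.1 ± 0.643 FPKM (SD, n = 2), followed by JAK2 at 1.84 ± 0.652 and JAK1 at 1.67 ± 0.14, whose libraries overlapped, and by JAK3 at 0.208 ± 0.109. In the overexpressing cells the order was TYK2 (22.4 ± 2.88 FPKM, SD, n = 2), JAK1 (6.41 ± 1.28), JAK2 (1.97 ± 0.0321) and JAK3 (0.011 ± 0.0156). JAK1 and JAK2, which could not be ordered in the controls, thus stood apart in the overexpressing cells. The share of JAK1 in the summed FPKM of the kinases was 9.23% and 7.6% in control replicates 6 and 8 and 21.7% and 19.8% in overexpressing replicates 1 and 3. TYK2 made up 82.0% and 80.6% of the sum in the controls and 72.4% and 73.1% in the overexpressing cells. TYK2 therefore took the largest share of the 4 kinases in every library. The sum itself was 19.1 and 20.6 FPKM in the controls and 33.7 and 27.8 FPKM in the overexpressing cells.

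**Figure D2:**
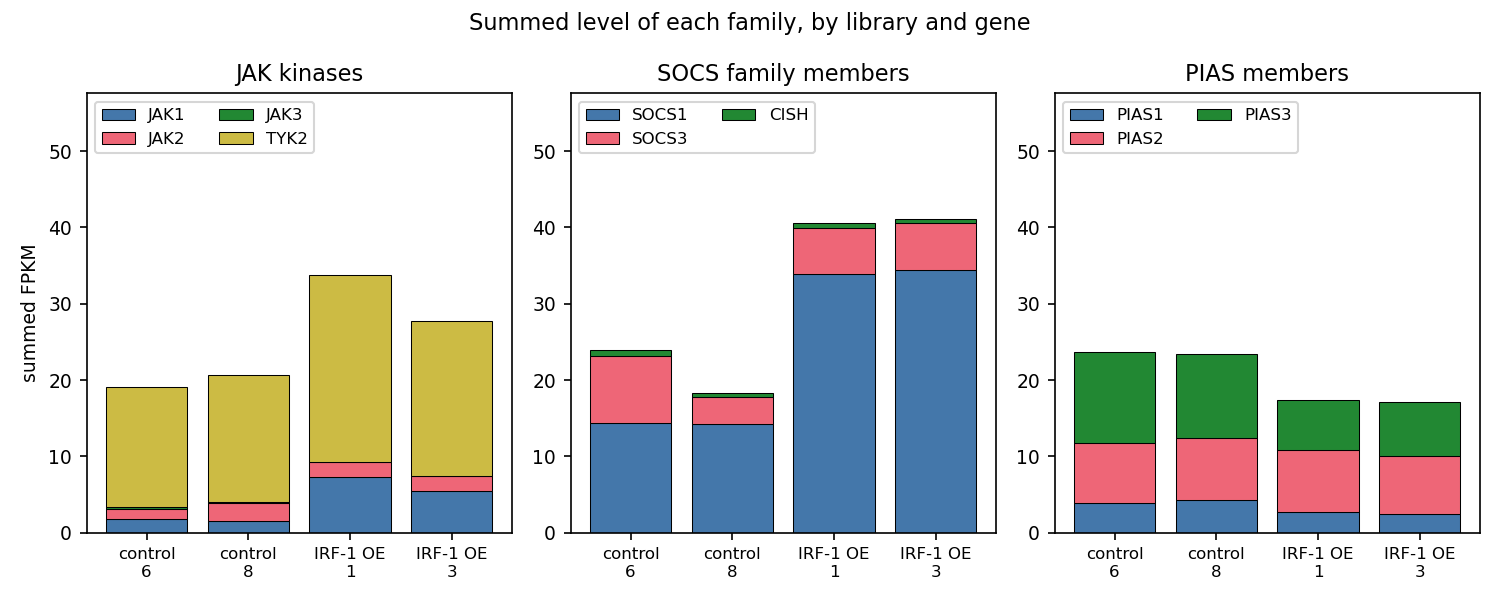
Summed FPKM (vertical axes, from 0) of the JAK kinases, the SOCS family members and the PIAS members in each library (bars), with the part of each gene in color. The kinases sum to 19.1 and 20.6 FPKM in the controls and 33.7 and 27.8 FPKM in the IRF-1 overexpressing cells, the SOCS members to 24.0 and 18.3 against 40.5 and 41.1, and the PIAS members to 23.8 and 23.4 against 17.4 and 17.1.

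Of the SOCS family members, SOCS1 rose, and neither SOCS3 nor CISH passed the test. SOCS1 (ENSSSCG00000027855, plus strand of chromosome 3, 31881891 to 31882722), which binds JAK1, JAK2 and TYK2 and blocks their activity, is a feedback inhibitor of interferon signaling. It had 700 and 595 counts in overexpressing replicates 1 and 3 and 187 and 208 counts in control replicates 6 and 8, which is 28.2, 28.6, 12.0 and 11.9 CPM. The libraries of each group were nearly equal and the groups were far apart. The fold change was 2.38 (log2 1.25, SE 0.184, edgeR adjusted p = 0.00247). Over all alternatives tried, the log2 fold change stayed between 1.24 and 1.27.

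SOCS3 (ENSSSCG00000036956, plus strand of chromosome 12, 3643929 to 3647009) inhibits signaling from gp130 and is a direct STAT3 target in many cell types. It was counted 378 and 324 times in the overexpressing libraries and 344 and 151 times in control replicates 6 and 8, or 15.2 and 15.6 CPM against 22.0 and 8.63 CPM. The controls lay on either side of the overexpressing libraries and differed from each other by more than those of any other member with over 100 counts in each library. The log2 fold change was 0.01, with a 95% interval from -0.90 to 0.92 (adjusted p = 0.987 in edgeR). In edgeR it was 0.83 without control replicate 6 (adjusted p = 0.0501) and -0.51 without control replicate 8 (adjusted p = 0.125), so its direction rested on which control was used.

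CISH (ENSSSCG00000040581, minus strand of chromosome 13, 33081637 to 33125598) is a STAT5 target that binds receptors and lacks the kinase-blocking region. It had 100 and 67 counts with IRF-1 overexpression and 86 and 65 counts in the controls, or 4.03 and 3.22 CPM against 5.5 and 3.72 CPM. The groups overlapped, and the log2 fold change was -0.34 with a 95% interval from -1.17 to 0.48 (adjusted p = 0.511 in edgeR).

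Per length, SOCS1 was the most abundant SOCS member, at 14.3 ± 0.065 FPKM (SD, n = 2) in the controls and 34.1 ± 0.364 FPKM in the overexpressing cells. In the controls TYK2 was above SOCS1 in both libraries, and in the overexpressing cells SOCS1 was above TYK2 in both. The annotated SOCS1 exon is only 832 bases long, so its FPKM depends on that annotation more than its fold change does. SOCS1 took 60.0% and 78.1% of the summed FPKM of the 3 SOCS members in control replicates 6 and 8 and 83.6% and 83.7% in the overexpressing libraries. The spread of this share in the controls came from SOCS3, at 8.72 and 3.42 FPKM.

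In the PIAS family, PIAS1 and PIAS3 were modestly lower in the overexpressing cells, while PIAS2 was called neither way. PIAS3 (ENSSSCG00000006689, plus strand of chromosome 4, 99464897 to 99475140), named for its binding of STAT3, had 508 and 454 counts in overexpressing replicates 1 and 3 and 583 and 596 counts in control replicates 6 and 8. In CPM these were 20.4 and 21.8 against 37.3 and 34.1. The groups did not overlap, and their difference exceeded the spread within either. PIAS3 fell by 0.76 in log2 terms (SE 0.168, edgeR adjusted p = 0.0131), a 1.69-fold decrease. The size changed little with a library left out, but the adjusted p in edgeR rose to 0.116 when overexpressing replicate 1 was left out and to 0.0573 when replicate 3 was. Its exons share 203 bases with ANKRD35 on the same strand, 290 with NUDT17 and 117 with POLR3C on the opposite strand, out of 3097, so reads in these stretches are uncertain.

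PIAS1 (ENSSSCG00000004958, plus strand of chromosome 1, 165853126 to 166087239) had 398 and 303 counts with IRF-1 overexpression and 352 and 436 counts in the controls. In CPM these were 16.0 and 14.6 against 22.5 and 24.9. Both overexpressing libraries were below both controls once library size was taken into account. PIAS1 fell by 0.63 in log2 terms (SE 0.189, edgeR adjusted p = 0.04), and this call was lost with any of the 4 libraries left out. The adjusted p in edgeR was then 0.161 without overexpressing replicate 1, 0.214 without overexpressing replicate 3, 0.0509 without control replicate 6 and 0.104 without control replicate 8. Of its 5801 exon bases, 2530 are shared with CALML4 on the opposite strand. The part of this overlap in the result on PIAS1 was not tested. CALML4 itself, which has 3372 exon bases with the shared stretch included, was counted 20 and 13 times in the overexpressing libraries and 43 and 29 times in the controls. It was called lower, as PIAS1 was (log2 fold change -1.61, edgeR adjusted p = 0.0405). The strand setting of the counting is not given in the sources used here, and reads of the shared stretch could not be assigned with certainty.

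PIAS2 (ENSSSCG00000034730, minus strand of chromosome 1, 96441666 to 96545780), also called PIASx, had 1673 and 1312 counts with IRF-1 overexpression and 1023 and 1185 counts in the controls, or 67.3 and 63.1 CPM against 65.5 and 67.8 CPM. All 4 libraries lay within a narrow range. The log2 fold change was -0.03, with a 95% interval from -0.35 to 0.28 (adjusted p = 0.89 in edgeR), the narrowest interval of the 10 members. Per length, PIAS3 was above PIAS2 in both controls (11.5 ± 0.739 against 7.98 ± 0.193 FPKM, SD, n = 2) and below it in both overexpressing libraries (6.82 ± 0.315 against 7.81 ± 0.361 FPKM). PIAS1 was the least abundant of the family in every library. Its FPKM was computed over all 5801 exon bases, 2530 of which are shared with CALML4, so its level depends on how reads there were counted.

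**Figure D3:**
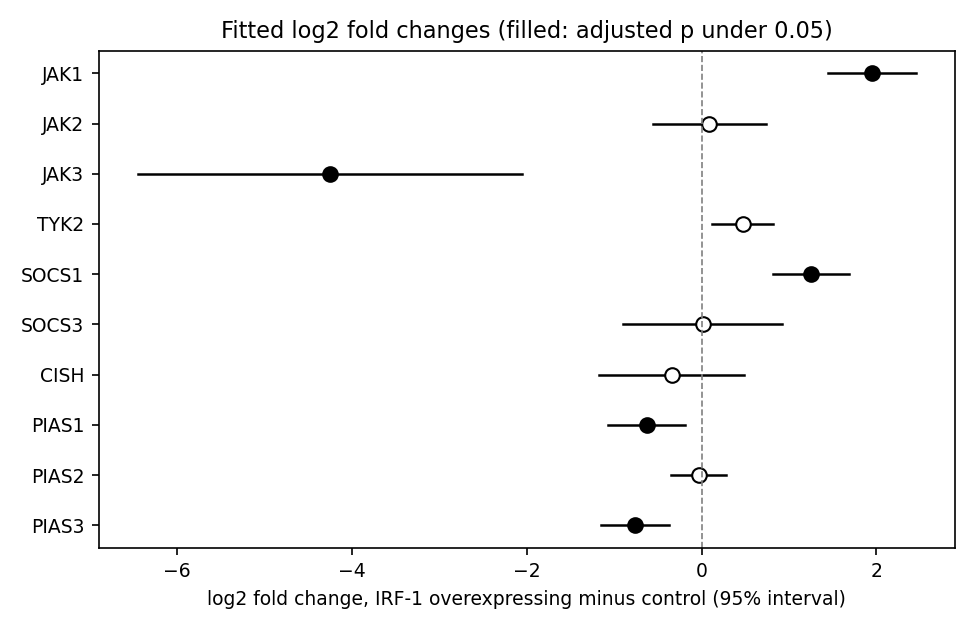
Fitted log2 fold change of each member gene, IRF-1 overexpressing minus control (horizontal axis), with its 95% interval (line); filled points passed an adjusted p of 0.05 in edgeR. JAK1 (1.95) and SOCS1 (1.25) lie to the right of 0, JAK3 (-4.25), PIAS3 (-0.76) and PIAS1 (-0.63) to the left, and the interval of JAK3 is the widest.

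Relatives of these inhibitors outside the set were measured as well. Of 5 further SOCS and PIAS genes tested (SOCS4, SOCS5, SOCS6, SOCS7 and PIAS4), 2 were called higher, beside 13.9% of all genes, and the difference was not tested. Their median log2 fold change was 0.40 and that of all genes 0.00. SOCS2 was not analysed here. SOCS4 had 1514 and 970 counts with IRF-1 overexpression and 487 and 624 in the controls (log2 fold change 0.69, SE 0.183, edgeR adjusted p = 0.0262). SOCS5, which like SOCS4 has a long amino-terminal part, had 870 and 654 counts against 329 and 388 (log2 fold change 0.62, SE 0.17, edgeR adjusted p = 0.0294). Both genes were higher in each overexpressing library than in either control. The SOCS4 call was lost without overexpressing replicate 1 (adjusted p = 0.236 in edgeR) or control replicate 6 (0.0582). The SOCS5 call was lost without overexpressing replicate 1 (adjusted p = 0.214 in edgeR), overexpressing replicate 3 (0.0867) or control replicate 6 (0.0616).

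Of 15 phosphatases, adaptor proteins and other regulators of the pathway, not all of them inhibitors, 13 were tested and 1 was called. Beside this, 29.4% of all genes were called, and the difference was not tested. The median log2 fold change of the list was 0.12. Without control replicate 6 the number called was 2, and without control replicate 8 it was also 2. The gene called with all libraries, USP18, removes ISG15 from proteins and also competes with JAK1 at the type I interferon receptor. It had 506 and 420 counts in overexpressing replicates 1 and 3 and 114 and 162 counts in control replicates 6 and 8. The groups were well apart, with USP18 at a log2 fold change of 1.29 (SE 0.224, edgeR adjusted p = 0.00488). PTPN11 (SHP2), the most abundant gene of this list in CPM, had a log2 fold change of -0.23 and an adjusted p of 0.244 in edgeR. Per length, GRB2 was above PTPN11 in both overexpressing libraries (39.6 and 37.9 against 34.3 and 31.6 FPKM) and below it in both controls. PTPN6 (SHP1), the phosphatase of blood cells, had at most 6 counts in a library.

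Genes for proteins that work with the SOCS and PIAS proteins were measured too. SOCS box proteins work with elongins, cullins and RBX or RNF7 subunits of a ubiquitin ligase, whose cullin is modified by NEDD8. Of the 6 genes tested from this list, NEDD8 included, 0 were called in edgeR, DESeq2 or limma-voom, beside 29.4% of all genes in edgeR, and the difference was not tested. At an unadjusted p under 0.05 in edgeR the count was also 0, and their median log2 fold change was 0.22. Without control replicate 6, 2 of them were called higher, and without control replicate 8, 1 was. Of 11 genes of the SUMO pathway, 1 was called (2 with no filter on low counts), beside the same 29.4% of all genes. The difference was not tested, and the median was 0.01. The gene called was SAE1, a subunit of the SUMO-activating enzyme, with 8046 and 6810 counts with IRF-1 overexpression and 3391 and 4061 in the controls. Its log2 fold change came to 0.54 (SE 0.128, edgeR adjusted p = 0.0174), and the edgeR adjusted p rose to 0.148 when overexpressing replicate 1 was left out and to 0.131 when replicate 3 was.

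Of the STATs, the substrates of the kinases, 6 of 7 were tested, with a median log2 fold change of -0.02. In edgeR 1 was called higher and 1 lower, beside 13.9% higher and 15.5% lower among all genes. The difference from these shares was not tested. STAT3 was higher, with 2597 and 1766 counts with IRF-1 overexpression and 771 and 789 in the controls (log2 fold change 1.00, SE 0.158, edgeR adjusted p = 0.00329). STAT6, the STAT of IL-4 and IL-13 signaling, was lower, with 145 and 111 counts against 411 and 310. Its log2 fold change came to -1.98 (SE 0.266, edgeR adjusted p = 0.00173), and neither gene's groups overlapped. On the opposite strand, STAT5A covers 957 exon bases of STAT3 and NAB2 covers 2262 of the 4487 exon bases of STAT6.

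Among the receptors that JAK kinases bind, calls went in both directions. Of 34 receptor genes analysed, 19 were abundant enough to be tested, of which 7 were higher, 5 were lower and 7 were not called, beside 13.9% higher and 15.5% lower among all genes. The difference from all genes was not tested. The filter on low counts was passed by IL12RB2 (higher) only through the overexpressing libraries and by GHR and IFNLR1 (both lower) only through the controls. Of the other 16 tested, 6 were higher and 3 were lower. Without overexpressing replicate 1, 3 of the 19 were called higher and 3 lower. With any other library left out, or with 10 counts required in every library, 3 were called lower. Of the 5 most abundant genes called, CNTFR and IL27RA were lower. CNTFR, which binds ciliary neurotrophic factor and passes the signal through gp130 and LIFR, had 219 and 352 counts with IRF-1 overexpression and 1886 and 1410 in the controls (log2 fold change -2.97, SE 0.329, edgeR adjusted p = 0.000911). IL27RA had 198 and 173 counts against 344 and 333 (log2 fold change -1.33, SE 0.214, edgeR adjusted p = 0.00356), and 3049 of its 5124 exon bases are shared with PALM3 on the opposite strand.

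The other called receptors of that group, IL13RA1, LIFR and IFNAR1, were higher. IL13RA1, a chain of the IL-4 and IL-13 receptor that binds TYK2, had 1551 and 777 counts with IRF-1 overexpression and 275 and 276 in the controls (log2 fold change 1.58, SE 0.257, edgeR adjusted p = 0.00371). LIFR had 502 and 275 counts against 112 and 99 (log2 fold change 1.38, SE 0.291, edgeR adjusted p = 0.0106). IFNAR1, the TYK2-binding chain of the type I interferon receptor, had 418 and 278 counts against 120 and 127 (log2 fold change 1.02, SE 0.242, edgeR adjusted p = 0.0173). Each of these was higher in both overexpressing libraries than in either control, and more so in replicate 1 than in replicate 3. Without overexpressing replicate 1 the calls on LIFR (adjusted p = 0.119 in edgeR) and IFNAR1 (0.175) were lost. IL6ST, which encodes gp130, was the most abundant receptor gene by mean CPM over the 4 libraries. In control replicate 6 CNTFR was above it (121 against 110 CPM), and per length CNTFR was above it in both controls. IL6ST had a log2 fold change of 0.02 and an adjusted p of 0.919 in edgeR.

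Ligands of these receptors were barely expressed. Of 31 ligand genes analysed, 4 were tested and 13 were at 0 in all 4 libraries, among them IFNB1. The whole list summed to between 4.52 and 8.32 CPM in a library. Of the 4 tested, 1 was higher and 1 was lower, beside 13.9% and 15.5% of all genes, and the difference was not tested. THPO was lower, with 13 and 7 counts with IRF-1 overexpression and 58 and 31 in the controls (log2 fold change -2.64, SE 0.563, edgeR adjusted p = 0.0112). IL12A was higher, with 37 and 30 counts against 3 and 6 (log2 fold change 2.41, SE 0.554, edgeR adjusted p = 0.015). Both rest on few counts, and THPO passed the filter on low counts only through the controls and IL12A only through the overexpressing libraries. The THPO call was lost without overexpressing replicate 1 (adjusted p = 0.0523 in edgeR) or 3 (0.0526), and that on IL12A without overexpressing replicate 1 (0.0721) or control replicate 6 (0.0628). The log2 fold change of THPO was -2.01 without control replicate 6. LIF had 4 and 17 counts against 22 and 24 and was not called with all libraries (log2 fold change -1.54, adjusted p = 0.14 in edgeR). Without overexpressing replicate 3 it was called lower (log2 fold change -3.06, adjusted p = 0.0286 in edgeR), and without overexpressing replicate 1 its log2 fold change was -0.76. IL7, the other ligand tested, had 27 and 17 counts against 5 and 7 and was not called (log2 fold change 1.39, adjusted p = 0.0979 in edgeR), and it passed the filter on low counts only through the overexpressing libraries.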

How the data were processed

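According to the study's methods, reads were filtered with trim_galore, mapped to Sscrofa11.1 with HISAT2 and counted with featureCounts 1.6.4, and htseq-count is named as well. The authors deposited whole-number counts per gene for each library, with exon lengths and without normalization. The annotation release, strand setting and treatment of multi-mapped reads are not given in the sources used here. The ChIP-Seq libraries were not analysed here.

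Counts were compared with edgeR 4.0.16 in R 4.3.3 (TMM factors, filterByExpr, quasi-likelihood test), with Benjamini-Hochberg adjustment over 13250 genes and calls at an adjusted p under 0.05. Every adjusted p in the text comes from this test unless another is named. Standard errors are the log2 fold change divided by the square root of F. The smallest two-sided p of an exact permutation test with 2 libraries in each group is 0.333. The edgeR test used here borrows its estimate of spread from all genes. Replicates differed beyond sampling noise, with a chi-square of 19 (overexpressing) and 32.7 (control) per degree of freedom. FPKM used the deposited exon lengths and the TMM-scaled library sizes. Symbols came from a reference table that named 14692 of 24358 identifiers. Exon overlaps were counted from the deposited coordinates.

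Alternatives were DESeq2 1.42.0, limma-voom (limma 3.58.1), other normalizations and filters, a minimum log2 fold change of 1, counts without the 37 mitochondrial genes and the 10 highest genes, and each library left out. The fits were also run on simulated counts, drawn with the same spread setting for every gene. That run checked the code only and does not bear on the calls reported here. Python 3.11.15 with matplotlib 3.10.9, pandas 2.3.3 and numpy 2.4.6 was used for tables and plots. The members and gene lists were chosen with earlier results of these data known. Named genes are the members, IRF1, and every called SOCS or PIAS relative, STAT, and phosphatase or other regulator. The 5 most abundant called genes of the receptor, ligand, SUMO and ubiquitin ligase lists, and the most abundant gene of each marker list, are named too. Abundance in these choices is the mean CPM of the 4 libraries. Other genes named were chosen after their values were seen.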

Additional observations from a re-analysis of the deposited data

How the results depend on the processing

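With all 4 libraries, the calls on JAK1, SOCS1, PIAS1 and PIAS3 held under 8 other normalizations, filters and tests, and that on JAK3 under 7, since JAK3 could not be tested where 10 counts were required in every library. TYK2 was called under 6 of the 8. Members called lower numbered 1 with a minimum log2 fold change of 1 and between 0 and 2 with each library left out, and members called higher numbered between 2 and 3. Over all genes, 1141 were higher with the minimum fold change, and with each library left out between 788 and 1995 were higher and between 845 and 2165 were lower. A left-out library leaves a group with 1 library, which is assumed to vary like the other group. The log2 fold change changed sign, without a call, for JAK2 (-0.23 to 0.51 with a library left out), SOCS3 (-0.51 to 0.83, and -0.01 without overexpressing replicate 3) and PIAS2 (-0.07 to 0.02), and the cause was not tested. That of IRF1 ranged from 6.30 to 6.62. No paired analysis was possible because the groups share no replicate number. A level under 3 counts (0.121 to 0.192 CPM) cannot be told from 0.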
